A study of Mus musculus with 89 samples.

Results

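Cell cycle and mitosis genes were examined in the embryonic forebrain of 2 mouse models of Down syndrome. The set was chosen by gene symbol from a list of 50 genes, and a gene counted as measured where a probe set carried its symbol alone. Of the 50, 47 were measured, each by 1 of the 22206 probe sets on the array: 31 of 32 genes of mitosis, 15 of 16 genes of S phase and 1 of 2 D cyclins. Ccnb1, Mcm7 and Ccnd1 were not named in the probe table used here. The values are log2 signals of 89 Clariom S arrays, 1 per embryo, from forebrains taken at embryonic day 18.5.

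A cell that divides first copies its DNA in S phase and then separates the copies in mitosis. For S phase, the origin factors Cdc6 and Cdt1 load the ring-shaped MCM helicase, geminin (Gmnn) restrains Cdt1, E2f1 and the E cyclins drive entry, and Pcna, Tyms, Rrm1 and Rrm2 serve DNA synthesis and its nucleotide supply. For mitosis, Cdk1 with its cyclins starts the process, Plk1 and the Aurora kinases direct it, the spindle checkpoint delays it until kinetochores are attached, kinesins move the chromosomes, and the anaphase-promoting complex with Cdc20 ends it. In the forebrain these RNAs come mainly from dividing progenitors beside the ventricles, from glial precursors and from dividing vascular and meningeal cells, while neurons do not divide. In bulk tissue, fewer dividing cells and less RNA per dividing cell cannot be told apart.

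Transcription of most mitotic genes depends on a short promoter element named CHR (TTTGAA or TTCGAA), often next to CCAAT boxes, and that of many S phase genes on E2F sites. In the promoters of RefSeq (GRCm38.p6; 250 bases before to 50 bases after each start) 39 of the 47 measured genes were found. A CHR match on either strand was present in 22 of 27 mitotic genes (81.5%) and in 1 of 12 S phase genes (8.33%), Mcm2, against 21.7% of all 27025 genes with a promoter. CCAAT on either strand was present in 21 of 27 mitotic and 7 of 12 S phase genes, against 41.1% of all genes. An E2F match (TTTCCCGC, TTTCGCGC, TTTGCCGC or TTTGGCGC, either strand) was present in 5 of 12 S phase genes (Mcm3, Mcm5, Mcm6, Cdc6 and Cdt1) and in 1 of 27 mitotic genes, Cdk1, against 2.60% of all genes. Nusap1, Nuf2, Mad2l1, Cenpe and Birc5 were the mitotic genes without a CHR match in this window. A match describes letters and does not show binding.

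The promoters of 6 genes described below are shown because they hold the 2 classes of element. Capitals mark CHR and CCAAT matches in the first 5 and the E2F matches in Mcm5, where 2 matches on opposite strands overlap. Top2a held 4 CHR and 6 CCAAT matches, the most CHR matches of any member. The windows lie at chr7:135716330-135716629 (minus strand) for Mki67, chr11:99024140-99024439 (minus) for Top2a, chr10:69352863-69353162 (minus) for Cdk1, chr1:189688037-189688336 (minus) for Cenpf, chr4:118437294-118437593 (minus) for Cdc20 and chr8:75109259-75109558 (plus) for Mcm5. Each is written 5′ to 3′ along the gene.
Mki67: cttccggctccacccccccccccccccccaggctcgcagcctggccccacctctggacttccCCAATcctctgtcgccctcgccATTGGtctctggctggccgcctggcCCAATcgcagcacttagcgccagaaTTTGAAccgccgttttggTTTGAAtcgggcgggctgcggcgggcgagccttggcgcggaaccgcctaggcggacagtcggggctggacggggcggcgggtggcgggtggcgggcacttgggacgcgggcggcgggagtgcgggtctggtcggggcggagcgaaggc
Top2a: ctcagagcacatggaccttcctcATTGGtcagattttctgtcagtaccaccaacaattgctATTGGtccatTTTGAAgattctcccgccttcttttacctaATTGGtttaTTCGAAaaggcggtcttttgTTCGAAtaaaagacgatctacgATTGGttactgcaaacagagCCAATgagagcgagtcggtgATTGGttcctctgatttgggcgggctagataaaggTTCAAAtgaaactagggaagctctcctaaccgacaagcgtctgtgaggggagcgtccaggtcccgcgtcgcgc
Cdk1: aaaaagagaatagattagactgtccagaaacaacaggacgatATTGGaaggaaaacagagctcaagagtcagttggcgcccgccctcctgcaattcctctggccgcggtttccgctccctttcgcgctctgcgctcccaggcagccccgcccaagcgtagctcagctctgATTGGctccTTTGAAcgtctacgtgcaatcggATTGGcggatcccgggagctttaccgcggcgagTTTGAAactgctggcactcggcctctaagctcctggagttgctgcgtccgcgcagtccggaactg
Cenpf: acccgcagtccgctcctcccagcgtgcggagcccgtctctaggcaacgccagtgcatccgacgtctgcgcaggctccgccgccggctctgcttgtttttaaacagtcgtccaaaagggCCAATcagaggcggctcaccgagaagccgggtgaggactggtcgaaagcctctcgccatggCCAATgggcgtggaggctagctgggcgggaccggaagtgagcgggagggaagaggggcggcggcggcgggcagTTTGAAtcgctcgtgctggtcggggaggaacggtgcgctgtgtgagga
Cdc20: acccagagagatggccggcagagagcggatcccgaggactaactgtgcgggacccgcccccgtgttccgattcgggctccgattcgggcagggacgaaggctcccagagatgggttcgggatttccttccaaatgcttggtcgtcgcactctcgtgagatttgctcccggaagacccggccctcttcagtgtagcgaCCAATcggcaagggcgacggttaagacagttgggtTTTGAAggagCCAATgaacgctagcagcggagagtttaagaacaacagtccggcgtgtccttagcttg
Mcm5: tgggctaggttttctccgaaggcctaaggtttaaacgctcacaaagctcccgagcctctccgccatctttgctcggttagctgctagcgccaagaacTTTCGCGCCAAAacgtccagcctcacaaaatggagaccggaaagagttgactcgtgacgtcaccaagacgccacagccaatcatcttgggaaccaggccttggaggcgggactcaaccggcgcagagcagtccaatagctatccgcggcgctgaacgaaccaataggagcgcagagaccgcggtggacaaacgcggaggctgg

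Ts65Dn mice carry a small extra chromosome made of a distal part of mouse chromosome 16 (Mmu16), which matches genes of human chromosome 21, and a proximal part of mouse chromosome 17 that does not. Ts66Yah mice, derived from Ts65Dn, lack that chromosome 17 part. Both colonies were kept on a mixed B6 and C3H background, and the extra chromosome of Ts65Dn came from the mother. The Ts66Yah colony went back to a few founder females bred by in vitro fertilization. EupTs65Dn held 18 euploid embryos and Ts65Dn 23 trisomic ones, together from 6 litters. EupTs66Yah held 24 euploid embryos and Ts66Yah 24 trisomic ones, from another 6. Labels gave 9 females and 9 males, 13 and 10, 11 and 13, and 13 and 11 in these groups. The labels name no treatment. Of the measured members, Mcm4 lies on Mmu16 before the triplicated part and Ndc80 on Mmu17, and the others lie on other chromosomes.

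The colonies differed in level, with array means of 5.26 to 5.33 in the Ts65Dn colony and 6.05 to 6.41 in the Ts66Yah colony, so each trisomic group was compared with its own euploid group. The log2 values of 1 EupTs66Yah array had an SD of 1.13, while the SDs of the rest of its group ran from 2.23 to 2.39. Values of that colony are given with and without this low-spread array. On 4 arrays, here named genotype-discordant, the triplicated Mmu16 genes read nearer to the opposite genotype of the colony. On 17 arrays, here named sex-discordant, Y-linked genes did not match the sex on the label. All were kept under their labels, and their effect is given where it changes a call. The 11 neuronal and 12 radial glial markers measured were all at or above the median signal of all probe sets in both colonies, while 1 of 7 erythroid markers was. In the Ts65Dn and the Ts66Yah colony, 8 and 6 of 9 intermediate progenitor markers were. So were 5 and 4 of 7 oligodendrocyte precursor markers, and 3 of 5 ventral progenitor markers in each. For endothelial markers it was 8 and 7 of 8, and for meningeal and pericyte markers 9 of 10 in each. Of the 47 members, 42 in the Ts65Dn colony and 40 in the Ts66Yah colony were at or above that median. E2f1, Cdc6, Gmnn, Kif4 and Hmmr were below it in both colonies, and Cdc20 and Kif20a in the Ts66Yah colony alone.

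The 4 cell cycle genes Chaf1b, Mis18a, Usp16 and Dyrk1a, which lie in the triplicated Mmu16 part, show what an extra copy gave on these arrays. In Ts65Dn, Chaf1b, a subunit of the chromatin assembly factor, was higher by 0.68 on the log2 scale (SE 0.11, limma adjusted p = 0.000134), and Mis18a, which helps to mark centromeres, by 0.49 (SE 0.086, adjusted p = 0.000356). Usp16, a histone deubiquitinase, was higher by 0.41 (SE 0.069) and the kinase Dyrk1a by 0.40 (SE 0.052). In Ts66Yah, Chaf1b was higher by 0.56 (SE 0.11, adjusted p = 0.00664) and Dyrk1a by 0.52 (SE 0.12, adjusted p = 0.0533). Usp16 passed the threshold in Ts66Yah without the low-spread array alone (0.22, SE 0.061, adjusted p = 0.0934), and Mis18a (0.33, SE 0.11, adjusted p = 0.214) did not.

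The first comparison asked how the members differ between Ts65Dn and euploid forebrain. No member passed an adjusted p of 10% in limma, while 0.491% of all probe sets did. Mitotic genes lay mostly lower in Ts65Dn: 25 of 31 had a value below that of EupTs65Dn, with a median log2 difference of -0.091, against -0.0021 over all probe sets, of which 51% were lower. S phase genes lay nearer to 0, with 10 of 15 lower and a median of -0.026. At an unadjusted p of 0.05 there were 4 members, all mitotic and all lower (Nusap1, Cenpf, Ccna2 and Kif2c), or 8.51% of the 47, against 5.79% of all probe sets. The methods' t-test also gave 4 at that level and 0 after adjustment.

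**Figure D1:**
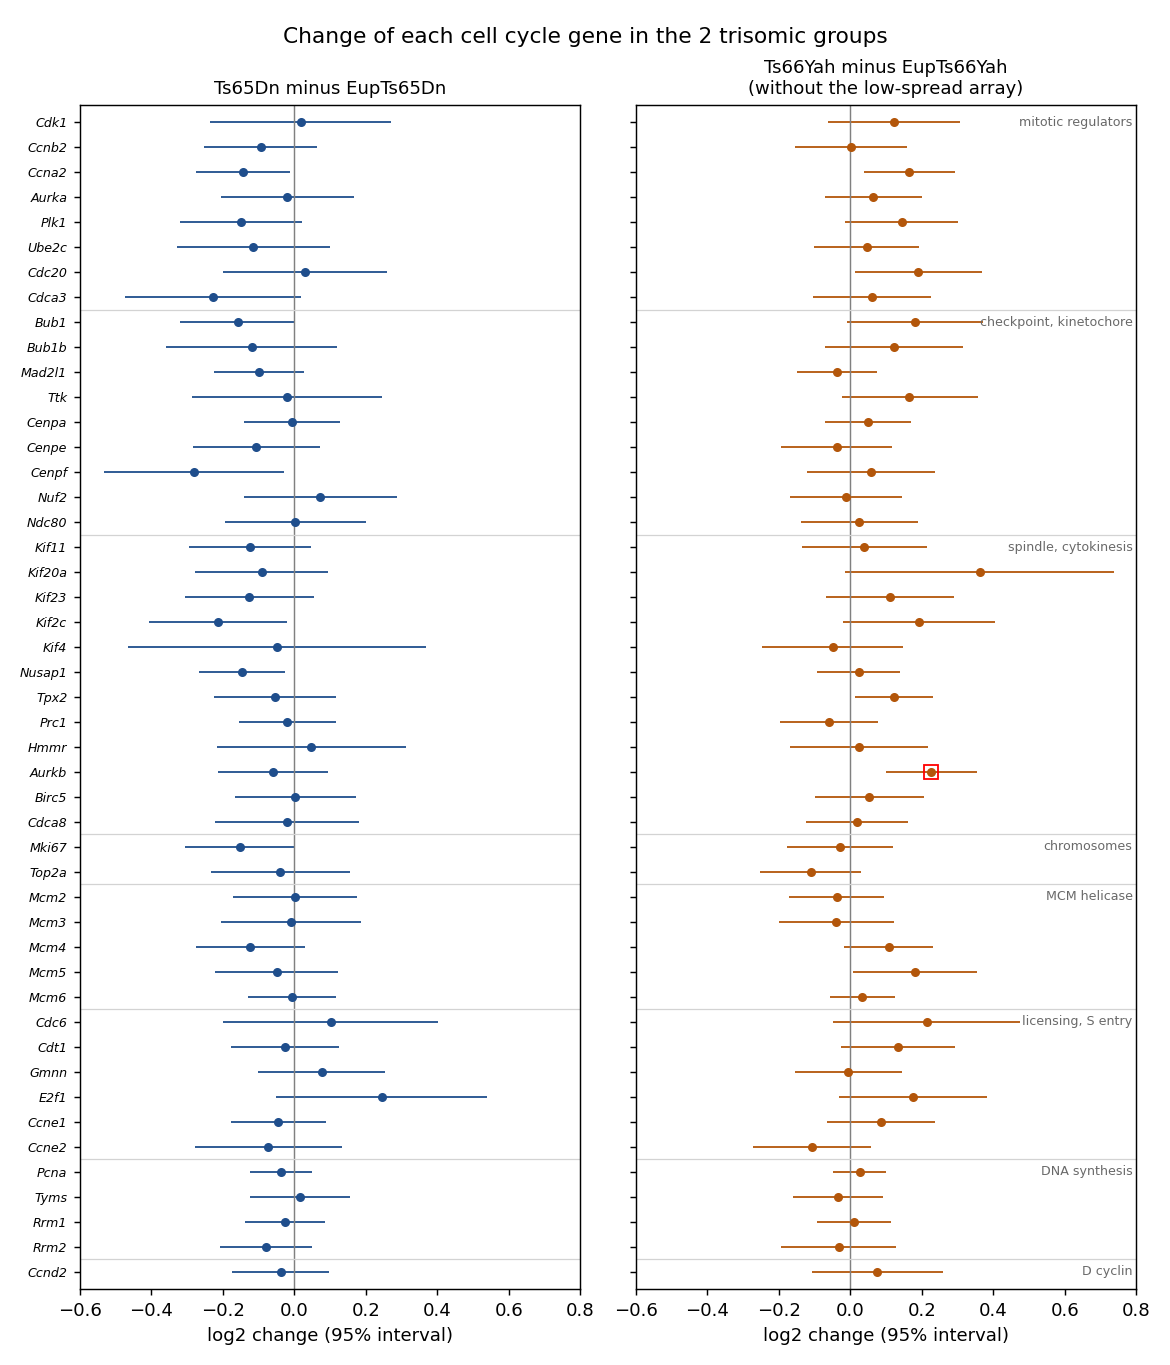
Log2 change of each of the 47 measured members (x axis) with its 95% interval, for Ts65Dn minus EupTs65Dn on the left (18 and 23 embryos) and Ts66Yah minus EupTs66Yah without the low-spread array on the right (23 and 24 embryos), ordered by role on the y axis. A red square marks an adjusted p under 10%, which Aurkb alone has, in Ts66Yah; most mitotic genes lie left of 0 in Ts65Dn and right of 0 in Ts66Yah.

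Among the regulators of mitosis 6 of 8 lay lower in Ts65Dn. Ccna2, the cyclin A that acts in S phase and at entry into mitosis, had log2 signals of 7.36, 7.91 and 8.19 (lowest, median and highest) in EupTs65Dn and of 7.42, 7.66 and 8.11 in Ts65Dn. The ranges overlapped, and 18 of 23 trisomic embryos had a value under the euploid median. The log2 difference was -0.14 (SE 0.065, adjusted p = 0.83). Cdca3, which targets the kinase Wee1 for removal, differed by -0.23 (SE 0.12) and Plk1, the polo-like kinase, by -0.15 (SE 0.085). Ube2c, the ubiquitin carrier of the anaphase-promoting complex, differed by -0.11, Ccnb2, a B cyclin, by -0.094 and Aurka, the Aurora kinase of the spindle poles, by -0.019. Cdk1 itself, with 5.004, 5.62 and 6.28 in EupTs65Dn and 4.32, 5.76 and 6.37 in Ts65Dn, differed by 0.018 (SE 0.13, adjusted p = 0.999), and Cdc20 by 0.029 (SE 0.11).

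Of the checkpoint and kinetochore genes 7 of 9 lay lower in Ts65Dn. Cenpf, a large protein of the outer kinetochore, had 4.91, 5.63 and 6.13 in EupTs65Dn and 4.15, 5.40 and 6.07 in Ts65Dn, with 18 of 23 trisomic embryos below the euploid median and 4 outside the euploid range. Its log2 difference of -0.28 (SE 0.12, adjusted p = 0.808) had the largest size among the members in this comparison. Bub1, a checkpoint kinase, had 5.40, 6.05 and 6.18 in EupTs65Dn and 5.32, 5.79 and 6.37 in Ts65Dn, and 19 of 23 trisomic embryos lay below the euploid median. Its difference was -0.16 (SE 0.080, adjusted p = 0.866) with all arrays. Without the sex-discordant arrays it was -0.30 (SE 0.075) and passed the threshold (limma adjusted p = 0.0911; 0.428% of all probe sets passed), as the one member called in that setting, and it is described here because of that value. Bub1b and Mad2l1, of the same checkpoint, differed by -0.12 (SE 0.12) and -0.099 (SE 0.062), the kinetochore motor Cenpe by -0.11 (SE 0.088), the kinase Ttk by -0.020 (SE 0.13) and the centromeric histone Cenpa by -0.0069 (SE 0.066). Nuf2 and Ndc80, partners in the complex that holds microtubules, differed by 0.073 (SE 0.11) and 0.0032 (SE 0.098).

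Of the spindle and cytokinesis genes 10 of 12 lay lower. Nusap1, which bundles spindle microtubules, had the smallest p of all members: 7.02, 7.30 and 7.71 in EupTs65Dn and 6.82, 7.12 and 7.50 in Ts65Dn, a log2 difference of -0.15 or 0.903-fold (SE 0.059, adjusted p = 0.717). Below the euploid median lay 16 of 23 trisomic embryos, 7 Ts65Dn embryos lay outside the euploid range, and the mean was lower in Ts65Dn in 5 of 6 litters. Kif2c, a kinesin that shortens microtubules at centromeres, had 5.08, 5.81 and 6.24 in EupTs65Dn and 5.11, 5.56 and 6.27 in Ts65Dn, a difference of -0.21 (SE 0.096, adjusted p = 0.83), with 19 of 23 trisomic embryos below the euploid median. Kif11, the motor that pushes spindle poles apart, differed by -0.12 (SE 0.085) and was lower in Ts65Dn in 6 of 6 litters, with differences of -0.32 to -0.0056. No other member lay on the same side in all litters of the colony. Cenpf was lower in 5 of 6, and Ccna2, Kif2c, Bub1 and Plk1 in 4 of 6. The central spindle motors Kif23, Kif20a and Kif4 differed by -0.13, -0.091 and -0.049, the last with an SE of 0.21 at a low signal. Tpx2, the activator of Aurka, differed by -0.054 and Prc1, which crosslinks the central spindle, by -0.019. The chromosomal passenger genes Aurkb, Cdca8 and Birc5 differed by -0.0605, -0.020 and 0.0028, and the spindle factor Hmmr by 0.048.

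The proliferation marker Mki67, which coats mitotic chromosomes, had 7.21, 7.76 and 8.11 in EupTs65Dn and 7.25, 7.59 and 8.09 in Ts65Dn. The groups shared nearly the same range, with 17 of 23 trisomic embryos below the euploid median, and the log2 difference was -0.15 (SE 0.076, adjusted p = 0.865). Top2a, the topoisomerase that untangles chromosomes, had 5.48, 6.17 and 6.77 against 5.53, 5.99 and 6.53, a difference of -0.039 (SE 0.097).

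In S phase, the helicase subunits lay close to the euploid level. Mcm2 had 5.69, 6.29 and 6.83 in EupTs65Dn and 5.69, 6.32 and 6.94 in Ts65Dn, a difference of 0.0022 (SE 0.086). Mcm3, Mcm5 and Mcm6 differed by -0.0091, -0.049 and -0.0070 (SE 0.097, 0.086 and 0.061). Mcm4 had 6.40, 6.84 and 7.14 against 6.10, 6.64 and 7.13, with 16 of 23 trisomic embryos below the euploid median and a difference of -0.12 (SE 0.076, adjusted p = 0.923). Among the licensing and entry genes E2f1 lay on the other side, with 3.47, 4.23 and 5.12 in EupTs65Dn and 2.81, 4.51 and 5.06 in Ts65Dn. Above the euploid median lay 20 of 23 trisomic embryos, and the difference was 0.24 (SE 0.15, adjusted p = 0.919) at a signal below the array median. Cdc6 differed by 0.10 (SE 0.15), Gmnn by 0.077 (SE 0.088), Cdt1 by -0.026 (SE 0.075), Ccne1 by -0.045 (SE 0.065) and Ccne2 by -0.073 (SE 0.10). Pcna, the sliding clamp, had 9.80, 10.05 and 10.28 against 9.82, 10.02 and 10.20, a difference of -0.038 (SE 0.043) and the smallest SE of the set. Rrm2, the regulated subunit of ribonucleotide reductase, had 6.80, 7.25 and 7.56 against 6.81, 7.17 and 7.65, a difference of -0.079 (SE 0.064, adjusted p = 0.947). Rrm1 and the thymidylate synthase Tyms differed by -0.027 and 0.016. The D cyclin Ccnd2, a marker of cortical progenitors, had 7.24, 7.84 and 8.26 in EupTs65Dn and 7.50, 7.77 and 8.13 in Ts65Dn, a difference of -0.038 (SE 0.067, adjusted p = 0.99).

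These intervals bound what could have been missed. The 95% interval lay within a 1.25-fold difference in both directions for 39 of the 47 members in Ts65Dn, and within a 1.5-fold difference, the dose of 1 extra gene copy, for all 47. The furthest bounds were -0.53 for Cenpf and 0.54 for E2f1 on the log2 scale. With array spread as a covariate no member passed either (0.558% of all probe sets did), the medians were -0.083 for mitotic and -0.020 for S phase genes, and E2f1 differed by 0.31 (adjusted p = 0.751).

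Taking the mean over the 31 mitotic genes in each embryo, EupTs65Dn had 5.88, 6.10 and 6.40 (lowest, median and highest) and Ts65Dn 5.85, 6.03 and 6.36. The groups overlapped over almost their whole range, and 18 of 23 trisomic embryos had values under the euploid median. The difference of the means was -0.079 (SE 0.036). For the 15 S phase genes EupTs65Dn had 6.05, 6.22 and 6.54 and Ts65Dn 6.05, 6.24 and 6.41, with 10 of 23 trisomic embryos below the euploid median and a difference of -0.0022 (SE 0.031). The mitotic mean relative to the S phase mean of the same embryo was -0.13 ± 0.078 (SD, n = 18) in EupTs65Dn and -0.20 ± 0.096 (n = 23) in Ts65Dn. Within litters, the mitotic mean was lower in Ts65Dn in 4 of 6, with differences of -0.19 to 0.020. The S phase mean was also lower in 4 of 6, with differences of -0.10 to 0.093. No test is given for these means, because the list was chosen with these data known.

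**Figure D2:**
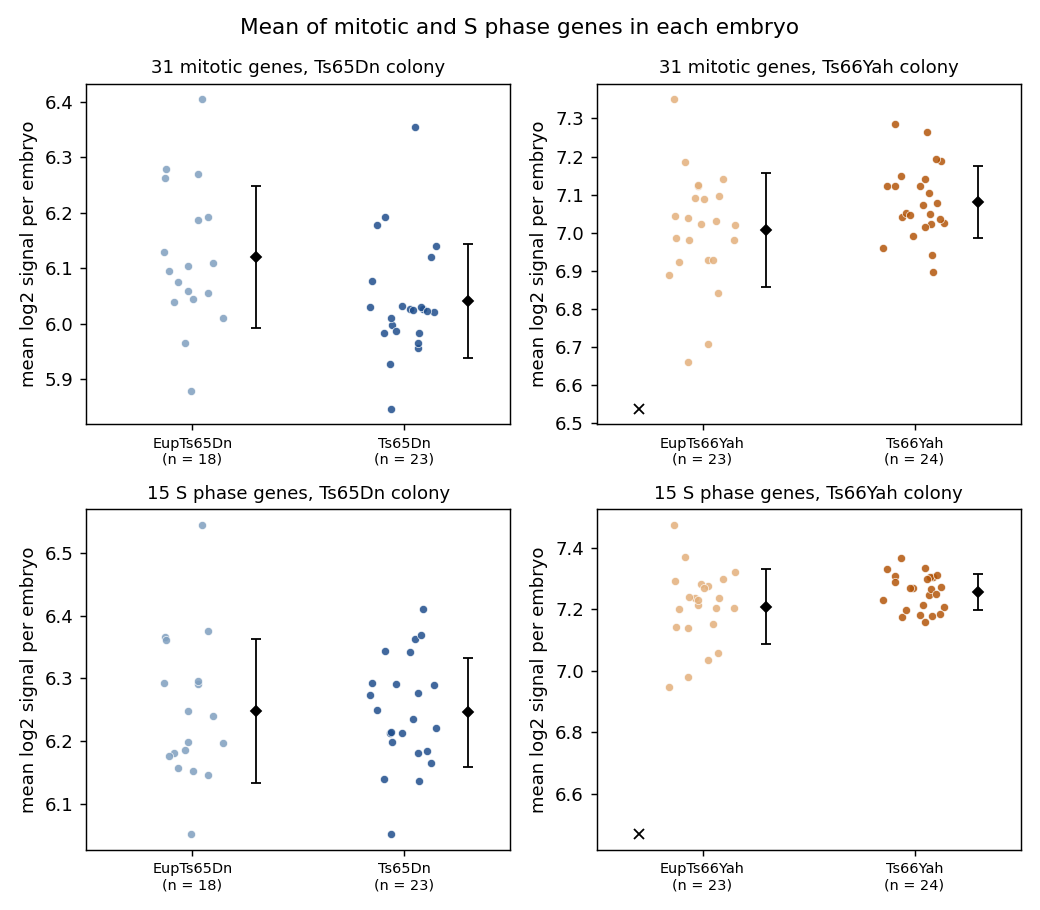
Mean log2 signal over the 31 mitotic genes (upper row) and the 15 S phase genes (lower row) in each embryo (1 point per embryo; y axis), by genotype and colony, with the group mean and SD as a black diamond and bar. The cross is the low-spread array, at 6.54 and 6.47 and outside the mean and SD; the groups overlap in every panel.

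Other genes of the pathway were described by their counts. Of 63 further mitosis genes 47 lay lower in Ts65Dn, with a median log2 difference of -0.064 and 0 past the threshold. Of the 63, 3 had an unadjusted p under 0.05 in limma, against 5.79% of all probe sets. The condensin subunit Ncapg (-0.24, SE 0.081, adjusted p = 0.449) and the spindle motor Kif15 (-0.27, SE 0.11, adjusted p = 0.707) had the smallest p. Of 48 measured further replication genes 30 lay lower, with a median of -0.020 and 0 past the threshold (2 at an unadjusted p of 0.05, the polymerase subunit Pola1 at -0.18 and the origin subunit Orc1 at -0.28). Of 30 cell cycle regulators 17 lay lower, with a median of -0.015 and 0 past the threshold. Wee1, the kinase that holds Cdk1 inactive, differed by -0.25 (SE 0.095, adjusted p = 0.603), and Lin54, the DNA-binding subunit that reads CHR elements, by 0.13 (SE 0.059).

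Markers of cell types that divide were read beside these values. In Ts65Dn, of 12 radial glial markers 6 were lower (median -0.0084) and of 9 intermediate progenitor markers 6 (median -0.016), with 0 past the threshold in either list. Of 10 meningeal and pericyte markers 8 were higher (median 0.076), and their mean ran from 6.69 to 7.64 in EupTs65Dn and from 7.08 to 7.69 in Ts65Dn. The mean of 8 endothelial markers ran from 6.91 to 7.36 in EupTs65Dn and from 6.95 to 7.28 in Ts65Dn. For 7 markers of oligodendrocyte precursors it ran from 5.32 to 5.92 and from 5.26 to 5.94. For 5 markers of ventral progenitors it ran from 5.89 to 6.50 and from 5.86 to 6.54. The part of these cells in the values of the members was not tested.

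In the Ts66Yah colony the same comparison gave values on the other side of 0. With all arrays no member passed the threshold in limma, while 0.171% of all probe sets did. There were 6 at an unadjusted p of 0.05, all mitotic and all higher. The methods' t-test gave 7 members at that level and 0 after adjustment, while 45 of all 22206 probe sets passed. The 6 of limma are 12.8% of the members, against 10.2% of all probe sets at the same level. Of 31 mitotic genes 25 lay higher (median 0.077) and of 15 S phase genes 11 (median 0.14), against a median of 0.043 over all probe sets. Quantile normalization, which gives every array the same spread, turned the mitotic median to -0.017 and left that of S phase genes at 0.065. Without the low-spread array Aurkb passed, as 1 of 47 members against 0.932% of all probe sets, and 5 members (10.6%) had an unadjusted p under 0.05 against 12.1% of all probe sets. In that setting the methods' t-test also gave 5 members at an unadjusted p of 0.05 and 1 after adjustment, while 201 probe sets passed. The medians were then 0.053 for mitotic genes (24 of 31 higher), 0.026 for S phase genes (9 of 15 higher) and 0.0044 over all probe sets.

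Aurkb, the kinase of the chromosomal passenger complex that corrects kinetochore attachments and acts in cytokinesis, had 6.79, 7.40 and 7.67 (lowest, median and highest) in EupTs66Yah and 7.19, 7.58 and 7.88 in Ts66Yah. Ranges overlapped, but 18 of 24 Ts66Yah embryos lay above the euploid median and 9 lay outside the euploid range. Within litters it was higher in Ts66Yah in 6 of 6, by 0.14 to 0.33, and no other member was on the same side in all. Ccna2 and Cdc20 were higher in 5 of 6, Kif20a in 4 and Tpx2 in 3. The log2 difference of Aurkb was 0.24 with all arrays (SE 0.070, limma adjusted p = 0.23). It was 0.23, or 1.17-fold, without the low-spread array (SE 0.063, adjusted p = 0.0923). The call was also made with array spread as a covariate over all arrays (adjusted p = 0.0976). It was not made without the low-spread array where array spread (0.24, adjusted p = 0.146) or litter (0.22, adjusted p = 0.155) was added, nor where EupTs66Yah replicate 14 was left out as well (0.23, adjusted p = 0.116), nor where the sex-discordant arrays were (0.19, adjusted p = 0.184; 1.22% of all probe sets passed). Over the 19 alternative settings the adjusted p ran from 0.0274 to 0.759. The difference ran from 0.12, with the arrays quantile normalized, to 0.26, without the low-spread and the genotype-discordant arrays.

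**Figure D3:**
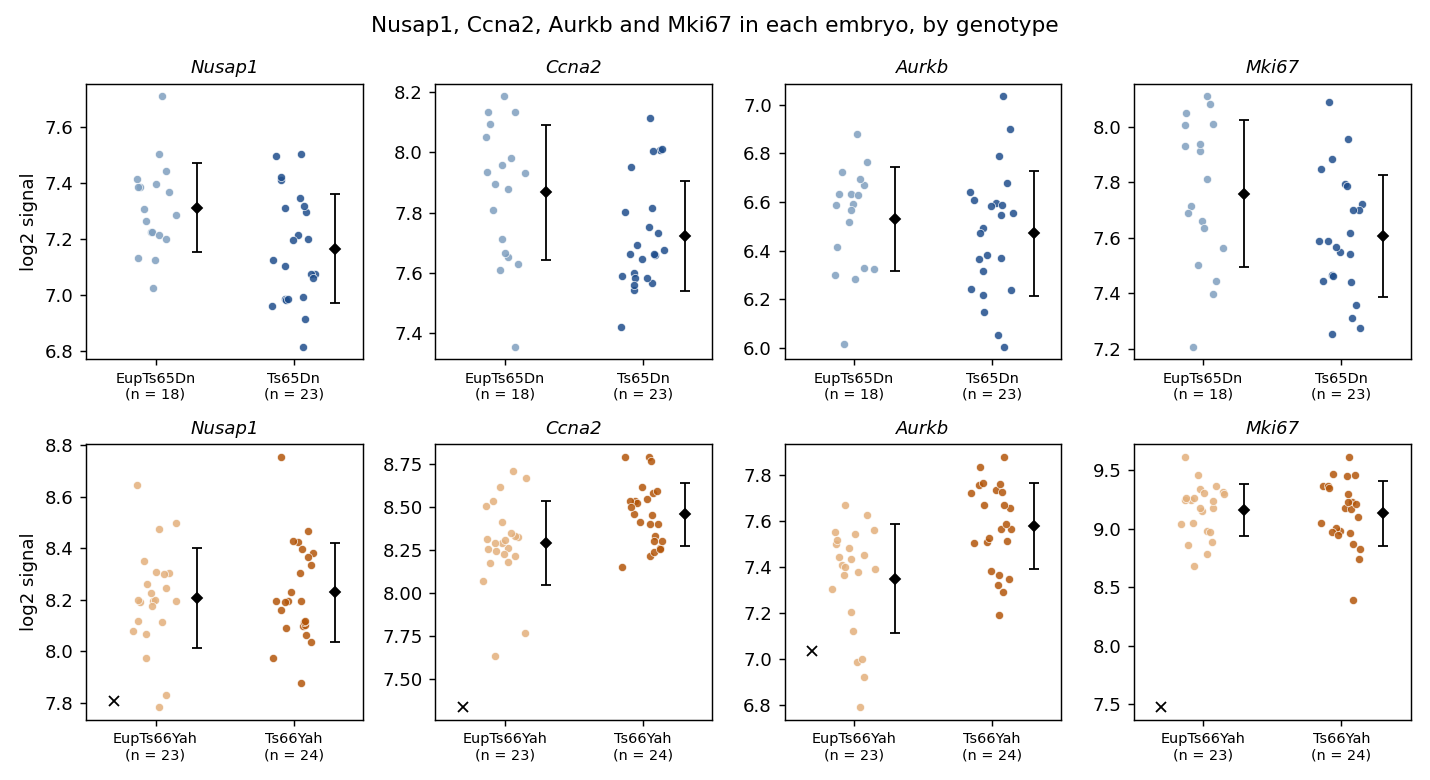
Log2 signals (y axis) of Nusap1, Ccna2, Aurkb and Mki67 in each embryo, in the Ts65Dn colony (upper row) and the Ts66Yah colony (lower row), with the group mean and SD as a black diamond and bar and the low-spread array as a cross left out of them. Aurkb is higher in 18 of 24 Ts66Yah embryos than the euploid median, while Mki67 overlaps throughout.

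All 8 measured regulators of mitosis had a higher group mean in Ts66Yah, with and without the low-spread array. Ccna2 had 7.34, 8.29 and 8.70 in EupTs66Yah, the lowest being the low-spread array, and 8.15, 8.46 and 8.79 in Ts66Yah. Without that array 19 of 24 trisomic embryos lay above the euploid median, and the difference was 0.17 (SE 0.064, adjusted p = 0.273). Cdc20 had 5.42, 6.14 and 6.65 in the remaining EupTs66Yah embryos and 5.69, 6.38 and 6.78 in Ts66Yah, a difference of 0.19 (SE 0.089, adjusted p = 0.383). Plk1 differed by 0.14 (SE 0.079) and Cdk1, with 5.62, 6.84 and 7.28 against 6.08, 6.87 and 7.39, by 0.12 (SE 0.092). Aurka, Cdca3, Ube2c and Ccnb2 differed by 0.065, 0.061, 0.046 and 0.0016. Most Ts66Yah embryos lay below the euploid median for Ccnb2 (14 of 24), Aurka (13) and Cdca3 (13), and above it for the other regulators.

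Checkpoint and kinetochore genes were higher in 6 of 9 cases without the low-spread array. Bub1 differed by 0.18 (SE 0.095), Ttk by 0.17 (SE 0.095), Bub1b by 0.12 (SE 0.096), Cenpf by 0.059, Cenpa by 0.050 and Ndc80 by 0.025, while Cenpe, Mad2l1 and Nuf2 differed by -0.038, -0.037 and -0.013. Of the spindle and cytokinesis genes 10 of 12 lay higher. Kif20a had 2.31, 6.18 and 6.89 in EupTs66Yah without the low-spread array and 5.74, 6.36 and 6.93 in Ts66Yah. Its euploid SD was 0.90 against 0.31 in Ts66Yah, and the difference of 0.36 (SE 0.19, adjusted p = 0.439) was the largest of the set. The value of 2.31 came from 1 euploid array, EupTs66Yah replicate 14, which is also among the arrays of narrow spread. Without that array too the difference was 0.19 (SE 0.10, adjusted p = 0.491), below that of Aurkb. Tpx2 had 6.96, 7.38 and 7.78 against 7.24, 7.50 and 7.89, with 18 of 24 trisomic embryos above the euploid median and a difference of 0.12 (SE 0.054, adjusted p = 0.347). Kif2c differed by 0.19 (SE 0.11), Kif23 by 0.11, Birc5 by 0.053, Kif11 by 0.039, Hmmr by 0.025, Nusap1 by 0.023 and Cdca8 by 0.018, while Kif4 and Prc1 differed by -0.0497 and -0.061. Mki67, with 8.68, 9.23 and 9.61 against 8.39, 9.17 and 9.61, differed by -0.028 (SE 0.074), and Top2a, with 6.94, 7.46 and 8.03 against 6.84, 7.35 and 7.82, by -0.11 (SE 0.070, adjusted p = 0.54).

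S phase genes of Ts66Yah, read without the low-spread array, were divided. Mcm5 had 5.81, 6.63 and 7.16 in EupTs66Yah and 6.28, 6.78 and 7.32 in Ts66Yah, a difference of 0.18 (SE 0.087, adjusted p = 0.399). Mcm4 had 7.46, 7.83 and 8.12 against 7.46, 7.91 and 8.32, a difference of 0.11 (SE 0.062, adjusted p = 0.491). Mcm6, Mcm2 and Mcm3 differed by 0.033, -0.039 and -0.039. Cdt1 had 5.90, 6.80 and 7.10 against 6.42, 6.93 and 7.23, a difference of 0.13 (SE 0.079, adjusted p = 0.506). Cdc6, E2f1 and Ccne1 differed by 0.21, 0.18 and 0.086, and Gmnn and Ccne2 by -0.0056 and -0.11. Pcna, with 10.75, 10.93 and 11.15 against 10.75, 10.98 and 11.17, differed by 0.026 (SE 0.037), and Rrm1, Rrm2 and Tyms by 0.011, -0.033 and -0.035. Ccnd2 had 7.77, 8.64 and 9.13 against 8.08, 8.63 and 9.25, a difference of 0.076 (SE 0.091, adjusted p = 0.777). The low-spread array lay far below its group for several of these, at 7.03 for Pcna and 5.20 for Rrm2, and with it the difference of Pcna was 0.19 (SE 0.16). For others it lay above the rest of its group, at 8.20 for Gmnn, 7.43 for Mcm3 and 7.07 for Cdc6.

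Without the low-spread array the 95% interval lay within a 1.25-fold difference for 38 of the 47 members and within a 1.5-fold difference for 46, the exception being Kif20a. The mitotic mean of the embryos was 6.66, 7.02 and 7.35 in EupTs66Yah and 6.90, 7.06 and 7.29 in Ts66Yah, a difference of 0.072 (SE 0.036), or 0.022 with array spread in the model. The S phase mean was 6.95, 7.23 and 7.47 against 7.16, 7.27 and 7.37, a difference of 0.047 (SE 0.028), or 0.0091 with array spread. Below the euploid median lay 6 of 24 Ts66Yah embryos for the mitotic mean and 9 for the S phase mean. The mitotic mean relative to the S phase mean of the same embryo was -0.20 ± 0.082 (SD, n = 23) in EupTs66Yah and -0.18 ± 0.090 (n = 24) in Ts66Yah. Within litters the mitotic mean was higher in Ts66Yah in 4 of 6, with differences of -0.23 to 0.15. The S phase mean was also higher in 4 of 6, with differences of -0.26 to 0.14.

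Among the other genes of the pathway in Ts66Yah without the low-spread array, 41 of 63 mitosis genes, 31 of 48 replication genes and 19 of 30 regulators lay higher, with medians of 0.041, 0.042 and 0.032. Of these genes 1 passed the threshold, against 0.932% of all probe sets. It was Ccnd3, a D cyclin (0.24, SE 0.050, limma adjusted p = 0.00556). With all arrays its difference was 0.35 (adjusted p = 0.329). The smallest p in the other 2 lists were those of Racgap1, a partner of Kif23 in cytokinesis (0.22, SE 0.069, adjusted p = 0.147), and of the polymerase subunit Pold2 (0.16, SE 0.049, adjusted p = 0.147). Of 12 radial glial markers 9 lay higher (median 0.090), and Vim passed (0.19, SE 0.051, limma adjusted p = 0.0853; 0.42 with all arrays, adjusted p = 0.509). Their mean ran from 8.77 to 9.33 in EupTs66Yah and from 8.95 to 9.40 in Ts66Yah. Of 10 meningeal and pericyte markers 10 lay higher (median 0.14), with means of 7.75 to 8.76 against 8.20 to 8.84. Of these, 0 passed and 4 had an unadjusted p under 0.05 in limma, against 12.1% of all probe sets. Of 8 endothelial markers 5 lay higher (median 0.10), with means of 7.60 to 8.11 against 7.80 to 8.29. Of 7 markers of oligodendrocyte precursors 5 lay higher (median 0.11; means of 6.50 to 7.22 against 6.31 to 7.25), of 9 of intermediate progenitors 7 (median 0.0497; 6.76 to 7.12 against 6.78 to 7.16), and of 5 of ventral progenitors 1 (median -0.017; 6.52 to 6.93 against 6.35 to 7.15). No marker of these 4 lists passed in limma (3 endothelial and 1 precursor marker at an unadjusted p of 0.05, against 12.1% of all probe sets). The part of these cells in the values of the members was not tested.

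Whether the effect of trisomy differs between the models was tested by the difference of the log2 changes, Ts65Dn minus Ts66Yah, over all 89 arrays. No member passed in limma, and 0.00901% of all probe sets did. At an unadjusted p of 0.05 there were 9 members (19.1%), all negative and 8 of them mitotic, against 7.05% of all probe sets. Without the low-spread array again no member passed, against 0.149% of all probe sets, and 10 members (21.3%) had an unadjusted p under 0.05, against 7.14%. Of 31 mitotic genes 26 had a negative difference in both settings, with medians of -0.19 and -0.16, against -0.048 and -0.0060 over all probe sets. Of 15 S phase genes 10 and 9 were negative, with medians of -0.13 and -0.040. Ccna2, at -0.14 in Ts65Dn and 0.20 in Ts66Yah with all arrays, had a difference of -0.35 (SE 0.10, adjusted p = 0.64), or -0.31 (SE 0.091, adjusted p = 0.296) without the low-spread array. Aurkb had -0.30 (SE 0.10, adjusted p = 0.65), Bub1 -0.44 (SE 0.17, adjusted p = 0.655) and Plk1 -0.31 (SE 0.12, adjusted p = 0.662). Kif20a, at -0.54 (SE 0.24, adjusted p = 0.69; -0.28 without the low-spread array and EupTs66Yah replicate 14), and Mcm4, at -0.32 (SE 0.14, adjusted p = 0.679), followed. Without the low-spread array Mcm5 and Cdt1 had differences of -0.23 and -0.16. With array spread as a covariate 0 members passed, with all arrays (0.158% of all probe sets) and without the low-spread array (0.135%). At an unadjusted p of 0.05 there were then 6 members (12.8%, against 7.77% of all probe sets) and 2 members (4.26%, against 5.50%). The mitotic medians in these fits were -0.10 and -0.088. The S phase direction turned with all arrays, to 5 of 15 negative and a median of 0.026, and was 8 of 15 negative with a median of -0.0074 without the low-spread array.

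Array spread, the standard deviation of the log2 values of an array, moved with many probe sets, and the members were read against them. Its mean was 2.49 in both EupTs65Dn and Ts65Dn, 2.33 in EupTs66Yah without the low-spread array (2.28 with it) and 2.36 in Ts66Yah. In the Ts65Dn colony, with genotype in the model, the slope on spread passed the threshold for 4 members, all upward (Cdc6, E2f1, Rrm1 and Nuf2), or 4 of 47 against 5.89% of all probe sets and 3.63% upward. Cdc6 was higher by 0.99 and E2f1 by 0.94 per 0.1 of spread. In the Ts66Yah colony 24 members passed without the low-spread array, 23 of them upward, while 40.5% of all probe sets passed and 24.2% did so upward. Of the 5 members with the smallest p, Kif20a was higher by 1.06 per 0.1 of spread, Kif2c by 0.51, Rrm2 by 0.45, Kif11 by 0.44 and Mcm3 by 0.40. Apart from the low-spread array, EupTs66Yah replicate 14 had the smallest spread of the colony (2.23). It also held the lowest remaining euploid value of each of these 5 genes (2.31, 5.29, 7.25, 5.62 and 6.11). In Ts66Yah the lowest values were lower still for Rrm2 (6.95) and Mcm3 (5.92). How far these slopes depend on that array was not tested, and none is given without it. With the low-spread array 32 of 47 passed, 25 of them upward, against 82.8% of all probe sets and 46% upward.

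**Figure D4:**
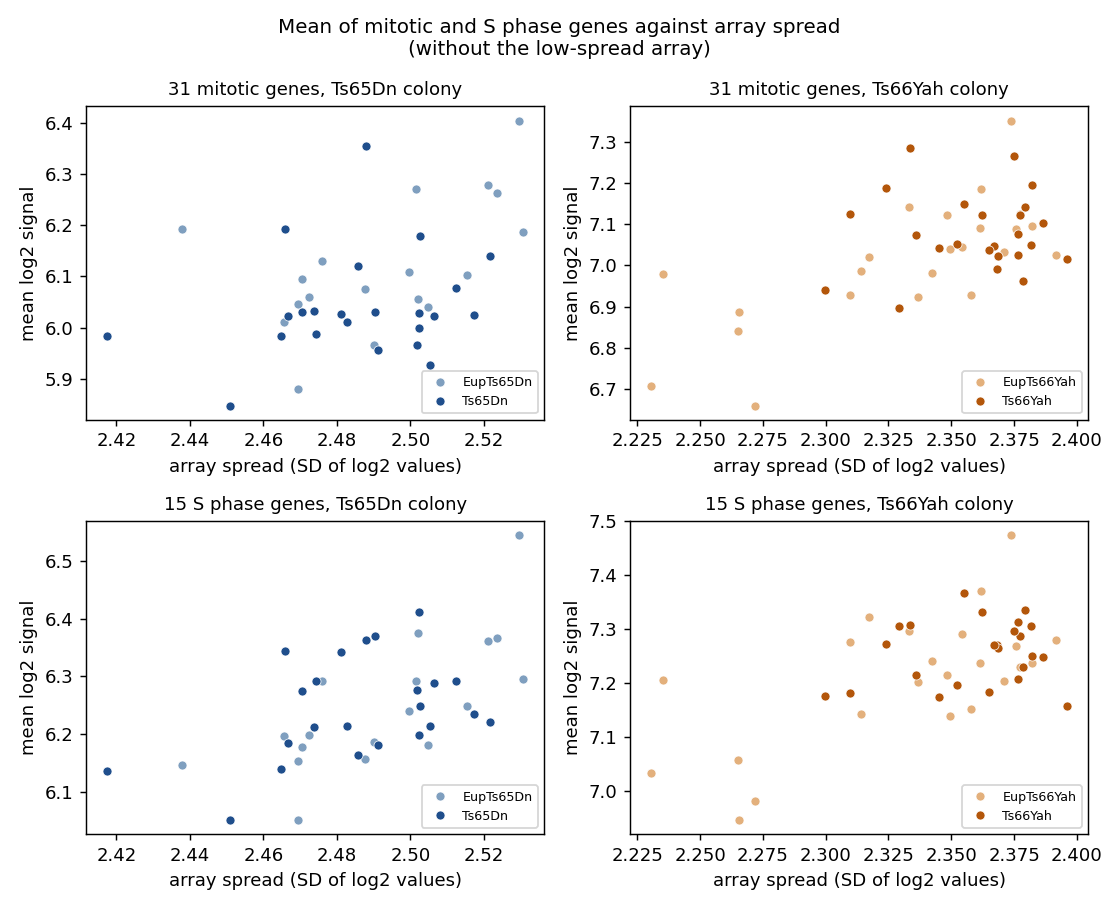
Mean log2 signal over the 31 mitotic genes (upper row) and the 15 S phase genes (lower row) of each embryo (y axis) against the standard deviation of the log2 values of its array (x axis), by genotype, without the low-spread array. In the Ts66Yah colony 5 euploid arrays lie below every Ts66Yah array in spread, and 4 of these 5 lie lowest in the mitotic mean of all embryos of the colony.

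With spread in the model and the low-spread array left out, 18 of 31 mitotic genes lay higher in Ts66Yah (median 0.044) and 9 of 15 S phase genes (median 0.014). With all arrays and spread in the model 21 of 31 mitotic genes lay higher (median 0.052), and the S phase direction turned, with 8 of 15 lower and a median of -0.020. In the fit without the low-spread array no member passed (4, or 8.51%, at an unadjusted p of 0.05 in limma, against 10.3% of all probe sets), while 0.41% of all probe sets did. With all arrays and spread in the model Aurkb was the 1 member called, against 1.26% of all probe sets. The part of array spread in the values of the members was not tested beyond these fits.

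Embryos of 1 litter share their dam, so the litters were compared with genotype in the model. No member differed among the litters past the threshold in limma. In the Ts65Dn colony 7 of 47 had an unadjusted p under 0.05, against 10.7% of all probe sets (0.378% of all probe sets passed the threshold). The smallest p were those of Cdk1 (adjusted p = 0.204), Tpx2 (0.256) and Cenpa (0.326). Litter means ran from 5.37 to 5.98 for Cdk1 and from 6.34 to 6.82 for Tpx2. With array spread also in the model Cdk1 passed (limma adjusted p = 0.0544; 0.324% of all probe sets). In the Ts66Yah colony without the low-spread array 5 of 47 members had an unadjusted p under 0.05, against 11.5% of all probe sets, so the members stood near the background (0.0901% of all probe sets passed the threshold). Those with the smallest p were Hmmr (limma adjusted p = 0.31), Bub1 (0.347) and Ube2c (0.398). With all arrays 1 member, Hmmr, had an unadjusted p under 0.05, against 3.87% of all probe sets, and 0% of probe sets passed.

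The members also varied together from embryo to embryo. After the group means were removed, the mean Pearson correlation over the 465 pairs of mitotic genes was 0.11 over the 41 embryos of the Ts65Dn colony and 0.15 over 47 embryos of the Ts66Yah colony, against 0.0012 and 0.0038 for all probe sets. For the 105 pairs of S phase genes it was 0.066 and 0.065, and for mitotic with S phase genes 0.093 and 0.11. With array spread also removed the mitotic values were 0.10 and 0.13 and the S phase values 0.043 and 0.038. Tpx2 (0.22) and Mki67 (0.21) in the Ts65Dn colony, and Bub1 (0.29) and Kif11 (0.27) in the Ts66Yah colony, had the highest mean correlation with the mitotic genes; Hmmr (-0.045) and Mcm2 (-0.030) had the lowest. These correlations are weak, share the arrays and their spread, and are given as a description. No other gene set of like signal was set beside them.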

How the data were processed

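RNA of 89 embryonic forebrains was measured on Clariom S arrays, 1 array per embryo. The authors deposited log2 signals made with RMA, per the submitters' processing notes, with version and settings not given in the sources used here. Probe sets were named from the platform annotation: 19572 of 22206 have 1 gene symbol and 2634 none. Each trisomic group was compared with its own euploid group with limma 3.58.1 (R 4.3.3) on the deposited values, over all probe sets, with Benjamini-Hochberg adjustment and a threshold of 10%; the difference of effects was fitted over all 4 groups. Embryos were the replicates, and p-values measure the spread between them. The script was tested on simulated data. The members and gene lists were chosen with earlier results of these data known. Values are given in full for Ccnd2, Mki67, Top2a, Cdk1, Pcna and Mcm2, and in each genotype comparison for the 5 mitotic and 3 S phase genes with the smallest p, and Bub1 was added after its values were seen; of other lists, those past the threshold or the 2 with the smallest p are named. Array spread, litter, sex, centring, quantile normalization, array weights, left-out litters and left-out arrays were tried as alternatives. Leaving out the low-spread array, EupTs66Yah replicate 14, the narrower arrays and the genotype- or sex-discordant arrays was chosen after seeing the data. The number of arrays and their signal limit the precision.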

Additional observations from a re-analysis of the deposited data

How the results depend on the processing

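No paired analysis was possible because the replicate numbers follow accession order and name no pairs; litter was used as a block instead, and left the count of members called at 0 in both genotype comparisons. The count of members called moved from 0 to 1 in Ts66Yah with array spread as a covariate, with all 4 groups in 1 fit, without the low-spread array, and without both that array and the genotype-discordant arrays (Aurkb each time). It moved from 0 to 1 in Ts65Dn without the sex-discordant arrays (Bub1), and for differences among litters of the Ts65Dn colony with array spread as a covariate (Cdk1). With that covariate the S phase median was -0.020 in Ts66Yah and 0.026 for the difference of effects. The other 70 counts computed stayed within 1.5 times, which for a count of 0 means only that it stayed at 0. The other 114 medians moved by less than 1 SD of the list mean over embryos (0.0996 to 0.14). That bound is wide beside the medians: 1 of the 114, the mitotic median of Ts66Yah under quantile normalization, changed sign, from 0.077 to -0.017. With each litter left out in turn the mitotic median ran from -0.10 to -0.055 in Ts65Dn and from 0.058 to 0.13 in Ts66Yah. The S phase median of Ts66Yah ran from 0.023, without the litter that holds the low-spread array, to 0.15.

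Signs of single members turned in 41 values, none of them called. With all arrays Pcna and Ccnd2 were both at 0.19 in Ts66Yah, and the other members that turned were nearer to 0. In Ts65Dn, Mcm2 was -0.023 with array spread, -0.014 with litter, -0.0052 with array weights and -0.0050 without the genotype-discordant arrays, and Cdk1 was -0.034 with litter and -0.090 without the sex-discordant arrays. In Ts66Yah, Mki67 was -0.070 with array spread, -0.013 centred, -0.062 quantile normalized, -0.027 with array weights, -0.028 without the low-spread array, -0.086 and -0.064 with spread or litter added to that, -0.073 without the narrower arrays (the 6 EupTs66Yah arrays with a spread below that of every Ts66Yah array), -0.036 without the genotype-discordant ones and -0.091 without the sex-discordant ones. For Mcm2 the values in the same order, with none turned by quantile normalization, were -0.073, -0.018, -0.0069, -0.039, -0.016, -0.022, -0.0012, -0.023 and -0.070. In Ts66Yah the settings without the narrower, the genotype-discordant or the sex-discordant arrays left out the low-spread array too. Pcna was -0.055 with array spread, -0.0025 without the narrower arrays and -0.0086 without the sex-discordant ones, and Ccnd2 was -0.040 with spread and without the low-spread array and -0.017 without the narrower arrays. With a litter left out, the ranges were -0.047 to 0.052 for Mcm2, -0.074 to 0.027 for Ccnd2, -0.069 to 0.065 for Cdk1 and -0.14 to 0.017 for Top2a in Ts65Dn. In Ts66Yah they were -0.017 to 0.28 for Ccnd2, -0.15 to 0.014 for Top2a, -0.10 to 0.14 for Mki67 and -0.067 to 0.11 for Mcm2. The cause of these turns was not tested. Members below the median signal, such as Kif4 and E2f1, had the larger errors.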
